A study of Sus scrofa with 33 samples.

Results

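The interferon-stimulated genes MX1, MX2, ISG15, OAS1, IFIT1, RSAD2, DDX58, IRF1 and IRF7 were followed in the pituitary gland of pigs kept at thermoneutrality (TN) or exposed to heat (HS). Probes were chosen by gene name. A probe counted as a member when its name in the design, or a symbol in its description, was 1 of these 9 genes. This gave 24 probes for 8 of the 9 genes, out of 45667 probes and 10088 named genes in the table. RSAD2 had no probe under that name, because the design calls it IRG6, and 2 probes were matched to it through its RefSeq accession. A further DDX58 probe was matched in the same way, which made 27 probes for the 9 genes. A strain name was not taken for the gene, so 131 probes whose text reads Monosiga brevicollis MX1 were left out.

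The study compared Large White (LW) pigs, Creole pigs and their F1 cross, all growing castrated males raised in the Caribbean, with an age that the sample labels do not give. At thermoneutrality there were 5 LW, 5 Creole and 6 F1 arrays and under heat 6 LW, 6 Creole and 5 F1 arrays, with 1 animal per array. The sample labels put TN at 24 °C and HS at 30 °C, and the series text describes 5 days at 32 °C. Litters were shared between the groups, and the TN animals were killed ahead of the change of temperature, so slaughter day and temperature cannot be told apart. The labels name no virus, interferon or other agent in any group.

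Interferons are secreted when a cell senses foreign nucleic acid. They bind receptors on the same and on neighbouring cells, and through JAK kinases and a transcription factor complex that holds IRF9 they switch on a large set of genes. Some products block viruses directly (MX1 and MX2 are dynamin-like GTPases, OAS1 makes a small signalling nucleotide when it meets double-stranded RNA, IFIT1 binds foreign RNA caps, RSAD2 or viperin is a radical SAM enzyme, and ISG15 is a ubiquitin-like protein joined to other proteins). DDX58, or RIG-I, senses viral RNA in the cytoplasm, and IRF1 and IRF7 are transcription factors of the response. Receptors for type I interferon are carried by nearly all nucleated cells, so the hormone cells, vessels and immune cells of the pituitary could each contribute transcripts.

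Each gene was read by probes of 60 bases, and the ones shown here are those whose agreement or disagreement carries the results. The MX1 pair was chosen because both read the same 3 low arrays described below while overlapping neither each other nor the brightest MX1 probe.
MX1 A_72_P444250: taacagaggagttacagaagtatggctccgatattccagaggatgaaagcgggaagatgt
MX1 A_72_P487406: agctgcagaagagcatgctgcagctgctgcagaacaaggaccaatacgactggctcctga
The ISG15 probes are 1 site read from 2 starts, with the 55 aligned bases in capitals. They differ there by T44C, counted from 1 at the 5′ end of A_72_P441219.
ISG15 A_72_P441219: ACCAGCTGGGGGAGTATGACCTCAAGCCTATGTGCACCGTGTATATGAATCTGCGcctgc
ISG15 O11065: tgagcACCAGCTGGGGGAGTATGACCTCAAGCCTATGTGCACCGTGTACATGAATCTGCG
The OAS1 probes do not overlap and gave breed differences of unequal size.
OAS1 A_72_P223657: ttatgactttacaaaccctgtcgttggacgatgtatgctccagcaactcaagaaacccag
OAS1 A_72_P719688: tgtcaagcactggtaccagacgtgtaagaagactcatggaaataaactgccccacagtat

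The remaining probes were 5 more for MX1, 3 each for MX2, IFIT1, IRF1 and IRF7, and 2 each for RSAD2 and DDX58. Of the 5 MX1 probes, A_72_P010326, A_72_P302839 and O3408 overlap each other by 45 to 57 identical bases, so they are close to 1 measurement. The scanner files place no probe on the genome, so exon or UTR cannot be stated. In the RefSeq annotation of Sscrofa11.1, MX2 (chr13:204798633-204821612) and MX1 (chr13:204843049-204868927) are neighbouring protein-coding genes. Signal was well above background in all 33 animals for 25 of the 27 probes, in 26 for RSAD2 A_72_P443124 and in 31 for IRF7 O9025. The spread of a probe's values over the 33 arrays was used to see how variable each gene was. The SD of the brightest MX1 probe (0.97 log2 units) lay at the 99.6th percentile of all probes, that of OAS1 (0.77) at the 99.2nd and that of ISG15 (0.74) at the 99th. IRF1 was at the other end, with an SD of 0.12 at the 8.09th percentile.

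Some arrays stood apart on these genes. LW HS 3, whose title names Large White while its breed field names Creole, was highest of all 33 arrays on the brightest probe of 6 of the 9 genes (MX1, ISG15, IFIT1, RSAD2, DDX58 and IRF7) and second for MX2. F1 HS 5 was first or second on 6 genes, and CR HS 2 was highest for OAS1. LW HS 3 was kept with Large White, and values that rest on it are given with and without it. All arrays resembled each other over the whole table (r between 0.976 and 0.996 for any pair), between 73.5 and 82.2% of an array's spots exceeded background and 0 spots were saturated. The tissue carried its hormone genes, with a mean GH1 level of 19.02. It also carried AVP (16.98) and OXT (15.7), hormones stored in the posterior lobe, although the methods name the anterior lobe. Of 18 leukocyte markers 13 were in the table, and their mean level ranged from 8.10 to 8.36 on HS arrays and from 8.12 to 8.53 on TN arrays. The other 5, CD3D, CD2, CD4 and ITGAM among them, had no probe matched to them in the table. The mean was 8.36 on LW HS 3 and 8.19 on F1 HS 5, and its part in the results was not tested. On the mean of the anterior pituitary markers LW TN 2 (15.9) and CR TN 1 (16.2) lay below the other 31 arrays (16.83 to 17.31), and LW TN 2 had the highest means of the leukocyte (8.53), endothelial (11.01) and posterior and intermediate lobe markers (12.95). Their part in the results was not tested, and results are given without both where a call ended. The haemoglobin gene HBB fell by 1.15 in HS (limma, adjusted p = 0.030). The other erythroid markers in the table, AHSP (-0.37, adjusted p = 0.55) and ALAS2 (-0.034, adjusted p = 0.945), did not pass. The part of blood content was not tested. In whole tissue, fewer cells of a type and less RNA per cell cannot be told apart.

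The first comparison asked whether heat changed these genes. None of the 27 probes passed an adjusted p of 0.05 between HS and TN (limma, Benjamini-Hochberg over all probes), in a comparison where 0.0219% of all probes passed. At an unadjusted p under 0.05 there were also 0 of 27, against 8.77% of all probes. Differences ranged from -0.32 to 0.15 log2 units with a median of 0.01, the same as the median of 0.01 over all probes, and 16 probes were higher and 11 lower in HS. With the 24 probes found by name alone, 14 were higher and 10 lower.

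Among the antiviral effectors, MX1 on its brightest probe (A_72_P440896) ran from 11.75 over a median of 14.85 to 15.21 log2 units on the 16 TN arrays, and from 11.96 over 14.57 to 16.14 on the 17 HS arrays. The ranges overlapped almost entirely, and the difference was -0.01 with a 95% interval of -0.68 to 0.65. ISG15 (A_72_P441219) ran from 12.22 over 12.82 to 13.73 in TN and from 11.82 over 12.81 to 15.29 in HS. The HS arrays reached both lower and higher than the TN arrays. Its difference was 0.15 (interval -0.36 to 0.66, adjusted p = 0.90), and 9 of 17 HS arrays lay above the TN mean of their breed.

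IFIT1 (A_72_P286449) went from 9.07 over 9.57 to 9.98 in TN and from 8.96 over 9.51 to 10.84 in HS, a difference of 0.01 (interval -0.23 to 0.25). RSAD2 (A_72_P303019) went from 6.93 over 7.72 to 8.003 in TN and from 6.35 over 7.48 to 9.35 in HS, a difference of -0.05 (interval -0.47 to 0.36). OAS1 (A_72_P223657) spanned 7.42 to 9.004 in TN and 5.62 to 9.47 in HS, a difference of -0.08 (interval -0.61 to 0.46). In each of these genes the HS range enclosed the TN range at both ends. MX2 (A_72_P177406) ran from 7.57 over 8.04 to 8.57 in TN and from 7.11 over 7.90 to 9.20 in HS, a difference of -0.05 (interval -0.37 to 0.26). A second MX2 probe, A_72_P027231, gave -0.32 ± 0.20 (SE, adjusted p = 0.68), the most negative value of the 27 probes, with 12 of 17 HS arrays below the TN mean of their breed.

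**Figure D1:**
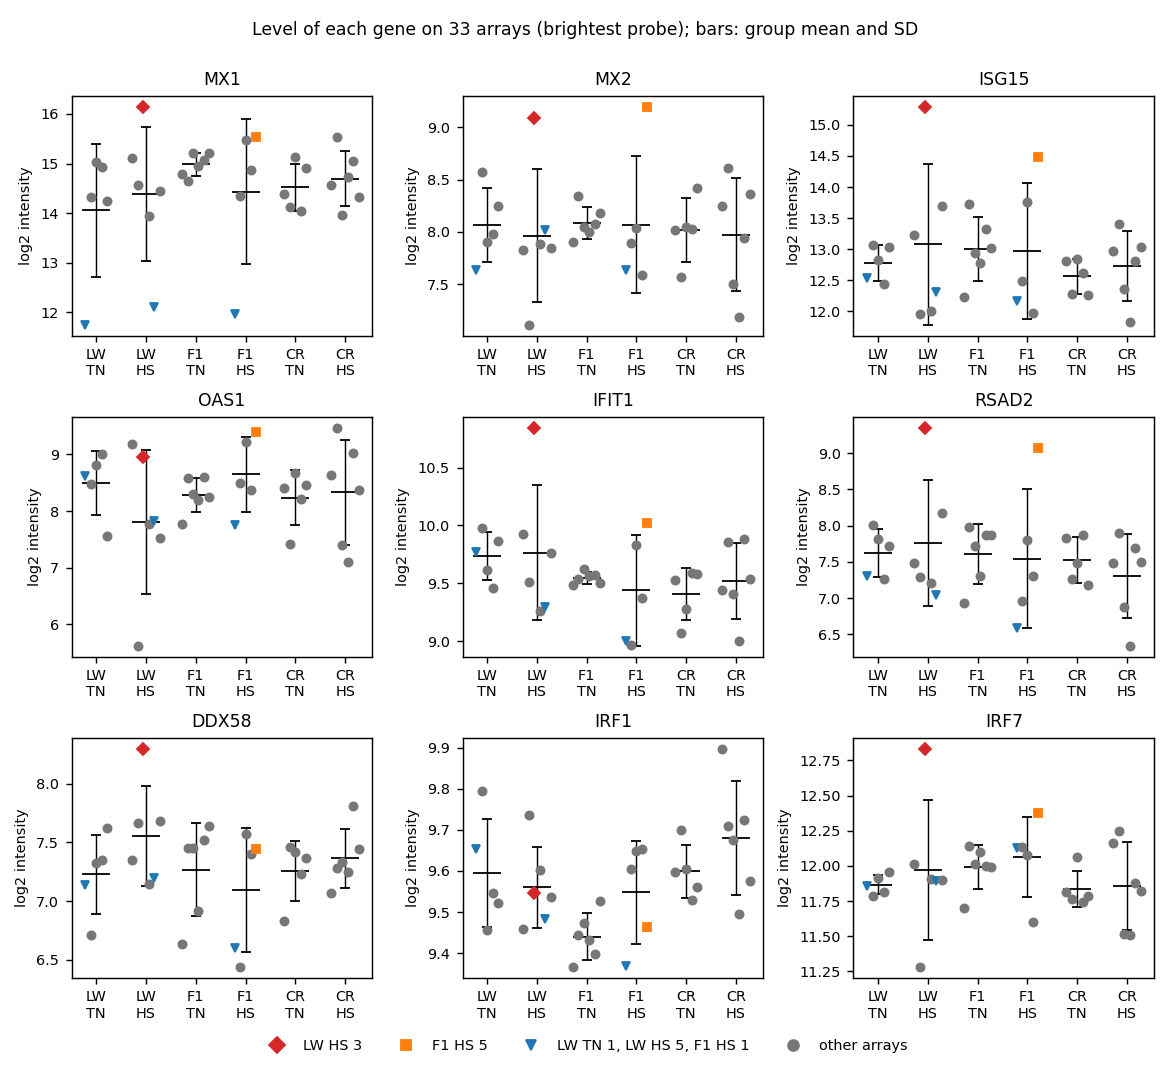
Log2 intensity (y axis) of the brightest probe of each gene on 33 arrays in the 6 breed-by-temperature groups (x axis, CR for Creole), with a point per array and the group mean and SD as bars. LW HS 3 (red diamond) is the highest array in 6 panels, and 3 arrays (blue triangles) lie near 12 for MX1 while the other 30 lie at 13.95 or above.

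The RNA sensor DDX58 (A_72_P223287) ran from 6.63 over 7.36 to 7.64 in TN and from 6.44 over 7.35 to 8.30 in HS, and differed by 0.09 (interval -0.17 to 0.34). Among the transcription factors, IRF7 (A_72_P065236) ran from 11.70 over 11.89 to 12.14 in TN and from 11.28 over 11.91 to 12.83 in HS, and differed by 0.07 (interval -0.13 to 0.26). IRF1 (A_72_P177721) had the narrowest interval, with a difference of 0.05 (interval -0.03 to 0.14) between TN arrays at 9.37 to 9.79 and HS arrays at 9.37 to 9.90. On the brightest probes, then, the intervals reached from -0.68 to 0.66 log2 units at most, and were tightest for IRF1. Over all 27 probes they reached from -0.74 (MX2 A_72_P027231) to 0.78 (MX1 A_72_P444250). LW HS 3 carried much of the higher values in HS. Without it the differences were 0.0034 for ISG15, 0.010 for IRF7 and 0.033 for DDX58, and those of RSAD2 (-0.16), MX1 (-0.13), OAS1 (-0.13), MX2 (-0.12) and IFIT1 (-0.057) were below 0, while IRF1 stayed at 0.055. None of these passed the threshold.

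**Figure D2:**
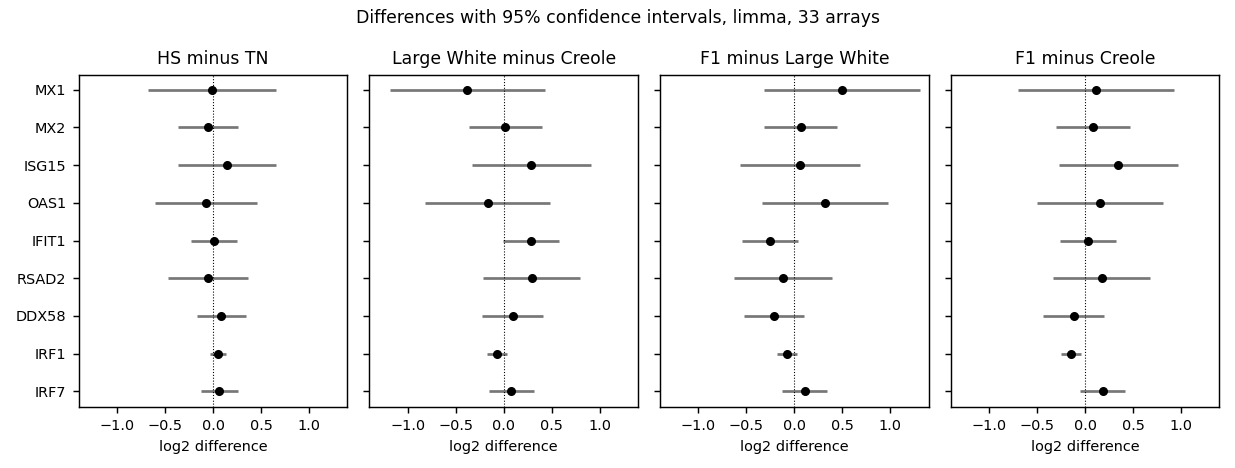
Log2 differences (x axis) of the brightest probe of each gene (y axis) for HS minus TN and for the breed comparisons, with 95% confidence intervals from limma over 33 arrays. All intervals cross 0 except that of IRF1 for F1 minus Creole, whose brightest probe had an adjusted p of 0.071.

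Heat was then examined within each breed. None of the 27 probes passed the adjusted threshold in LW, Creole or F1 (limma), where 0% of all probes passed in each, and none passed in the test of the breed by temperature interaction (0% of all probes). At an unadjusted p under 0.05, 1 probe passed in LW (6.8% of all probes), 0 in Creole (5.85%), 1 in F1 (5.68%) and 1 in the interaction (4.25%). The LW and the interaction probe was the same one, the IRF1 probe O14559. It ran from 7.40 over 7.80 to 7.98 in LW HS against 7.88 over 8.14 to 8.42 in LW TN, lower in 6 of 6 HS arrays than the TN mean, with a difference of -0.39 ± 0.14 (SE, adjusted p = 0.64). The F1 probe was the dim IRF7 probe O9025, at 0.21 ± 0.10 (SE, adjusted p = 0.86). On brightest probes the largest differences within a breed were those of OAS1 in LW (-0.69 ± 0.45 SE, adjusted p = 0.82) and MX1 in F1 (-0.55 ± 0.57 SE, adjusted p = 0.91). Both moved with single arrays. OAS1 in LW lay between -0.96 (without LW HS 1) and -0.25 (without LW HS 2), and MX1 in F1 between -0.82 (without F1 HS 5) and 0.073 (without F1 HS 1).

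The order of the 6 groups was read from the same probes. For ISG15 the group means fell in the order LW HS 13.1 ± 1.29 (SD, n = 6), F1 TN 13.0 ± 0.51 (n = 6), F1 HS 13.0 ± 1.1 (n = 5), LW TN 12.8 ± 0.28 (n = 5), Creole HS 12.7 ± 0.56 (n = 6) and Creole TN 12.6 ± 0.28 (n = 5). Neighbours in that order differed by less than their SDs. The first place of LW HS came from LW HS 3, without which its mean was 12.6 ± 0.78 (n = 5), the 5th of the 6 groups. For MX1 the order ran from F1 TN at 14.98 ± 0.23 (n = 6) over Creole HS at 14.7 ± 0.55, Creole TN at 14.5 ± 0.48, F1 HS at 14.4 ± 1.47 and LW HS at 14.4 ± 1.34 to LW TN at 14.1 ± 1.34. The 3 groups with SDs above 1 each held 1 of the low arrays described below. Without LW HS 3 the LW HS mean of MX1 was 14.0 ± 1.15 (n = 5) and came last. IFIT1 was at 9.74 in LW TN, 9.77 in LW HS and 9.41 to 9.55 in the other four, but LW HS was at 9.55 ± 0.29 (n = 5) without LW HS 3, the level of F1 TN. IRF1 was lowest in F1 TN at 9.44 ± 0.06 and highest in Creole HS at 9.68 ± 0.14.

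Breeds were compared next with temperature in the model. Between LW and Creole 0 of the 27 probes passed the adjusted threshold, against 6.65% of all probes, and 3 of 27 passed unadjusted, against 18.7%. Between F1 and LW the counts were 0 of 27 (1.48% of all probes) adjusted and 1 of 27 (13.9%) unadjusted. Between F1 and Creole 1 of 27 passed adjusted (6.86% of all probes) and 2 of 27 unadjusted (21.8%). With 27 probes, 7 of them MX1 probes that moved as one, these counts are too small to set the members apart from all probes. Some of the 5 endothelial markers differed between breeds. KDR was 0.94 higher in LW (adjusted p = 3.9e-05) and 0.59 higher in F1 (adjusted p = 0.0097) than in Creole, and CDH5 0.41 higher in LW than in Creole (adjusted p = 0.045). TEK was at -0.75 in F1 minus Creole (adjusted p = 0.0081) and -0.72 in F1 minus LW (adjusted p = 0.030). CDH5 was at -0.47 in F1 minus LW (adjusted p = 0.0497). In that comparison KDR (-0.35) and PECAM1 (-0.26) were also below 0 and VWF (0.14) above, and in LW minus Creole PECAM1 was at 0.19 and VWF at -0.16. Of the 13 leukocyte markers 1 passed, the macrophage receptor CSF1R, lower in F1 than in Creole (-0.39, adjusted p = 0.026) and than in LW (-0.42, adjusted p = 0.040). The macrophage gene CD163 was at -0.49 in LW minus Creole (adjusted p = 0.054). Directions were mixed among these markers. In LW minus Creole AIF1 (0.24), CD68 (0.15), TYROBP (0.12) and CSF1R (0.035) were above 0 and CD14 (-0.17) below. CD163 was at 0.40 in F1 minus LW. In F1 minus Creole CD68 was at 0.086 and CD163 at -0.092. Of the 8 anterior pituitary markers 1 passed, POU1F1 at -0.34 in LW minus Creole (adjusted p = 0.036). Their part in the breed values was not tested.

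The probe that passed between F1 and Creole was IRF1 A_72_P536281. It ran from 8.88 over 9.09 to 9.34 in the 11 Creole arrays and from 8.75 over 8.94 to 9.20 in the 11 F1 arrays, and 10 of 11 F1 arrays lay below the Creole mean of their temperature. The groups overlapped, and the difference was -0.18 ± 0.06 (SE, adjusted p = 0.045). The brightest IRF1 probe, A_72_P177721, gave -0.15 ± 0.05 (adjusted p = 0.071) with 11 of 11 F1 arrays lower, whereas O14559 gave 0.17 ± 0.11 (adjusted p = 0.38), the other way. Within groups O14559 did not follow the other two IRF1 probes (r = -0.17 and -0.14 over 33 arrays), which followed each other (r = 0.56). Omitting single arrays ended the call in 18 of 33 cases, with adjusted p of 0.015 to 0.087, and so did counting LW HS 3 as Creole (0.052) and leaving out both LW TN 2 and CR TN 1 (-0.16, adjusted p = 0.060). The arrays whose omission ended it were CR HS 1, 2, 3 and 5, CR TN 1, 3 and 4, F1 HS 1, 2 and 5, F1 TN 1, 2, 4, 5 and 6, LW HS 1 and LW TN 3 and 4.

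IFIT1 was higher in LW than in Creole on its 3 probes, by 0.42 ± 0.15 (SE) on A_72_P489826, 0.28 ± 0.14 on A_72_P286449 and 0.28 ± 0.14 on A_72_P427319. None passed the adjusted threshold (adjusted p = 0.091, 0.29 and 0.29). On A_72_P489826 the 11 LW arrays ran from 7.49 over 7.92 to 8.999 and the 11 Creole arrays from 7.17 over 7.61 to 8.33, and 10 of 11 LW arrays lay above the Creole mean. On the brightest probe the difference was 0.28 with LW HS 3, 0.17 without it and 0.060 (adjusted p = 0.94) with it counted as Creole. For OAS1 the probes differed. A_72_P719688 gave -0.80 ± 0.34 (SE, adjusted p = 0.18) for LW minus Creole, with LW arrays at 5.74 to 8.59 and Creole arrays at 6.53 to 9.27, whereas A_72_P223657 gave -0.17 ± 0.32 (adjusted p = 0.87). Both probes read LW HS 2 lowest, at 5.62 on the brighter and 5.74 on the other, and this array was also lowest for MX2 (7.11) and IRF7 (11.28).

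LW HS 3 carried much of the LW mean for several genes. ISG15 differed between LW and Creole by 0.29 with it and 0.05 without it, RSAD2 by 0.29 and 0.12, DDX58 by 0.09 and 0.004, and IRF7 by 0.08 and -0.01. MX1 went from -0.38 to -0.58. It moved the other way without either LW array that was low for MX1, to -0.12 without LW TN 1 and -0.16 without LW HS 5. None of these values passed the threshold with or without those arrays.

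MX1 split the arrays into separate levels. On A_72_P440896, LW TN 1 read 11.75, F1 HS 1 read 11.96 and LW HS 5 read 12.11, and the other 30 arrays read 13.95 or more, with a mean of 14.8 ± 0.53 (SD). The same 3 arrays were lowest on all 7 MX1 probes, with a gap of 1.47 to 1.90 log2 units to the next array. The mean of the 3 minus the mean of the other 30 was -2.94 to -2.72, and this held on the bright probes and on the dim A_72_P444250 and A_72_P487406 shown above. The 7 probes moved as one, with r of 0.97 to 1.00 between the deviations from group means of any pair over 33 arrays. These are levels of 3 arrays picked by their values, so no test was made.

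LW TN 1 was the lowest of the 33 arrays for MX1 and of mixed rank for the other genes. Counted from the highest, it was 8th for IRF1 (9.65), 9th for IFIT1 (9.77), 11th for OAS1 (8.63), 21st for ISG15 (12.5) and IRF7 (11.86), 22nd for RSAD2 (7.30), 26th for DDX58 (7.14) and 27th for its neighbour gene MX2 (7.63), where it was also the lowest LW TN array. On LW HS 5 the ranks of the other genes lay between 16th for MX2 (8.02) and 28th for RSAD2 (7.05). F1 HS 1 was low on most genes, at 32nd for RSAD2, DDX58 and IRF1, 31st for IFIT1 and 29th for ISG15, but 7th for IRF7 (12.1). Of the 3 arrays 2 were LW and 1 was F1, 1 was TN and 2 were HS, and 0 of the 11 Creole arrays were among them. LW TN 1 and F1 HS 1 shared slide 1, whose remaining array, CR HS 1, read 14.6, and LW HS 5 was on slide 4. The part of the slide was not tested.

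**Figure D3:**
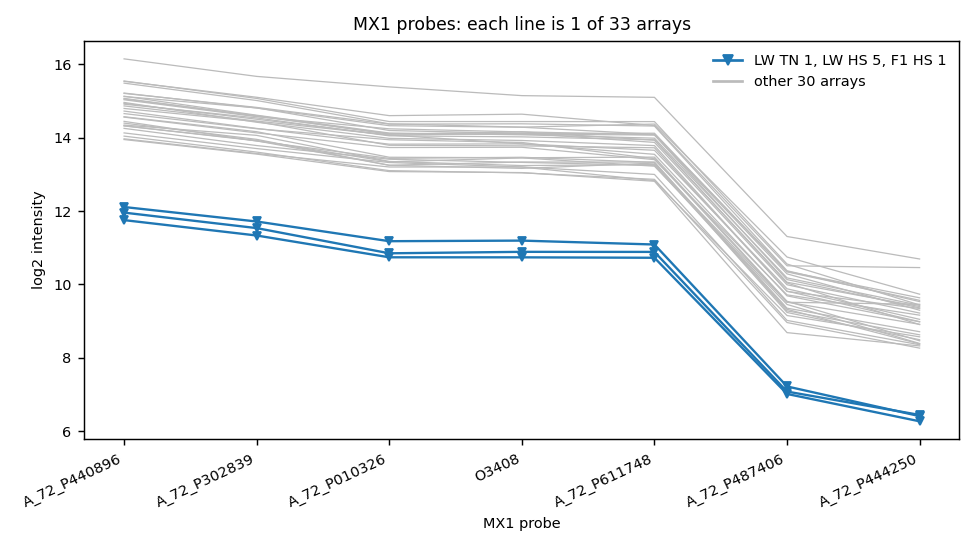
Log2 intensity (y axis) of the 7 MX1 probes (x axis, by brightness), 1 line per array. The blue lines of LW TN 1, LW HS 5 and F1 HS 1 run below the other 30 arrays on each probe, by at least 1.47 log2 units.

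With no member passing in the comparison of means by heat, the spread between arrays of 1 group was compared as a description. The SD within groups was larger in HS than in TN for 9 of the 9 genes, and 60.3% of all probes went that way. It was 0.38 in TN and 1.02 in HS for ISG15, 0.17 and 0.48 for IFIT1, 0.13 and 0.38 for IRF7, 0.36 and 0.81 for RSAD2, 0.28 and 0.61 for MX2, and 0.45 and 1.01 for OAS1. In these 6 genes the ratio was above 1.5, as in 17.6% of all probes. The ratio was 1.46 for MX1, 1.38 for IRF1 and 1.20 for DDX58. For MX1 it turned on the low arrays described above, at 3.14 without LW TN 1, 1.18 without F1 HS 1 and 1.78 without the 3 low arrays. With each array left out in turn the ratio stayed above 1 for each of the 9 genes, with the lowest at 1.06 for DDX58 without LW HS 3. Without LW HS 3 and F1 HS 5, both HS arrays, the SD stayed larger in HS for 9 of 9 genes and the ratio was above 1.5 for 5 of them (16.7% of all probes), with ISG15 at 1.83, IFIT1 at 1.97 and RSAD2 at 1.44. Most of the 9 genes varied together, as given below, so the counts over them are not of separate observations.

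**Figure D4:**
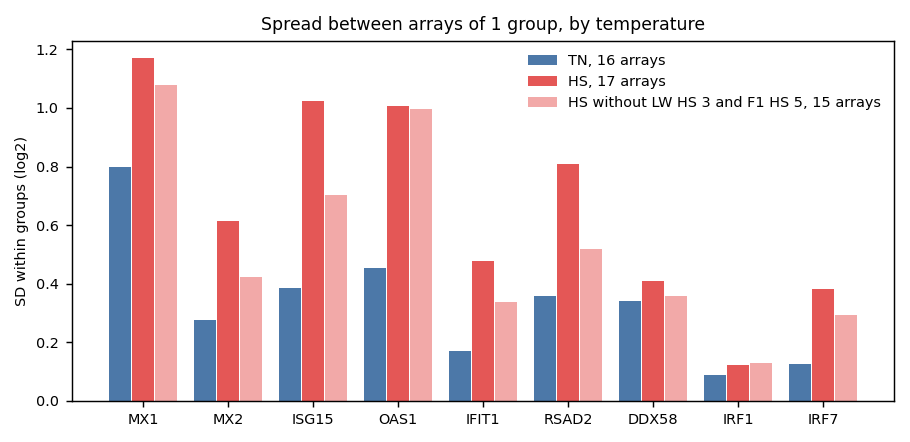
SD of log2 intensity between arrays of the same group (y axis), pooled over the 3 breeds, for TN, HS and HS without LW HS 3 and F1 HS 5. ISG15 has an SD of 0.38 in TN, 1.02 in HS and 0.70 in HS without those arrays.

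Whether the genes varied together was asked over deviations of each array from the mean of its group. Pearson's r and Spearman's rho were computed for the 36 pairs with permutation p-values, adjusted over the 36. Since MX1 fell into separate levels, its pairs were computed over the 30 arrays above the gap. Of the 36 pairs, 24 passed an adjusted p of 0.05 by Pearson's r (22 with all 33 arrays for every pair), and 16 of the 24 by rho too. No share for pairs of other genes is given, so whether this count is particular to these genes was not tested. The closest pair was ISG15 and RSAD2, with r = 0.92 and rho = 0.86 over 33 arrays (permutation p = 1e-05 for both, the smallest that the permutations can give, adjusted p = 0.00018). Without the 2 arrays farthest on ISG15, r was 0.85. IFIT1 and RSAD2 followed, with r = 0.85 (permutation p = 2e-05, adjusted 0.00018), rho = 0.75 (4e-05, adjusted 0.00048) and r = 0.76 without the 2 farthest. ISG15 and IFIT1 gave r = 0.84 (permutation p = 3e-05, adjusted 0.00022), rho = 0.72 (0.00019, adjusted 0.0014) and r = 0.71 without the 2 farthest. MX2 gave r = 0.80 with ISG15 (permutation p = 1e-05, adjusted 0.00018, rho = 0.72) and with RSAD2 (permutation p = 5e-05, adjusted 0.0003, rho = 0.65), which were 0.66 and 0.63 without the 2 farthest. The levels of these effectors varied together from animal to animal within groups. MX1 gave r of 0.50 to 0.66 with the 7 genes other than IRF1, of which 6 passed and that with MX2 did not (adjusted permutation p = 0.055). By rho only 2 of the 7 passed, those with OAS1 (rho = 0.74, adjusted permutation p = 0.0014) and IRF7 (rho = 0.54, adjusted 0.019), and the other 5 had adjusted p of 0.059 to 0.19. These r were between 0.25 and 0.52 without the 2 arrays farthest on MX1. They rested on LW HS 3, since over the 29 arrays left without it only the pair with OAS1 passed (r = 0.57, adjusted permutation p = 0.019, rho = 0.66, adjusted 0.0075), and the other 6 had r of 0.30 to 0.48 with adjusted p of 0.086 to 0.33. Those 29 arrays were chosen by MX1's own values. With the 3 low arrays kept, over 32 arrays, no MX1 pair passed by r (OAS1 r = 0.34, adjusted permutation p = 0.18). By rho those with OAS1 (0.49) and DDX58 (0.48) passed, each at an adjusted permutation p of 0.034.

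IRF1 stood outside this pattern. None of its 8 pairs passed by Pearson's r (r from -0.16 to 0.14), and none did by rho. Its brightest probe varied little between arrays (SD 0.12), and its 3 probes agreed poorly (r from -0.17 to 0.56). How far this limited its pairs was not tested. DDX58 passed with RSAD2 (r = 0.58, rho = 0.52, adjusted permutation p = 0.0077 and 0.015) and, by r alone, with IFIT1 (0.55), ISG15 (0.525) and MX1 (0.52), while its r with IRF7 (0.24), OAS1 (0.20) and MX2 (0.27) did not pass. Without LW HS 3 no pair with DDX58 passed by Pearson's r, its r with RSAD2 being 0.47 (adjusted permutation p = 0.067). By rho only that with MX1 passed over the 32 arrays (0.48, adjusted permutation p = 0.034), and it did not above the gap (adjusted 0.23). The count depended on LW HS 3. With all 33 arrays for every pair 22 of 36 passed, without LW HS 3 13 passed (14 with the MX1 pairs kept above the gap), and without LW HS 3 and F1 HS 5 10 passed. Among the 21 pairs without IRF1 and MX1, the median r was 0.65 with all arrays, 0.60 without LW HS 3 and 0.50 without both.

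**Figure D5:**
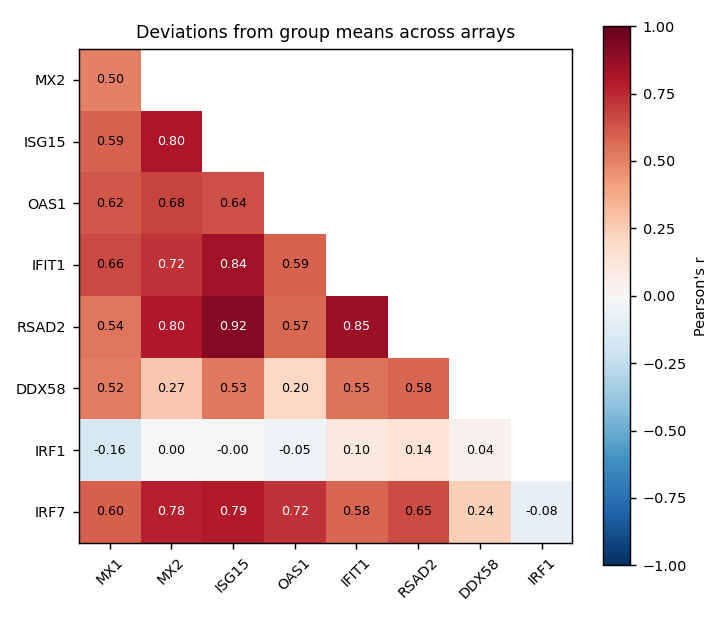
Pearson's r (colour and number) between the deviations of 2 genes from their group means, over 33 arrays, or 30 arrays for pairs with MX1. ISG15 and RSAD2 have the highest r at 0.92, and the IRF1 row and column hold values between -0.16 and 0.14.

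The genes outside the 9 whose deviations were most like theirs were found by the r between a probe and the mean of the 9 standardised deviations over 33 arrays, as a description. The 10 highest included IRF9 (r = 0.95), IFI44 (0.93), IFI6 (0.91), PARP12 (0.91), DHX58 (0.90), OAS2 (0.89), IFIT3 (0.88), HERC5 (0.88) and ZNFX1 (0.87). Of the 10, 8 were in the list of other interferon pathway genes, and PARP12 and ZNFX1 were not. IRF9 is part of the factor through which interferon acts, DHX58 is a relative of DDX58, and HERC5 joins ISG15 to its targets. Without LW HS 3 these 9 had r of 0.80 (ZNFX1) to 0.92 (IRF9) over 32 arrays, and 9 of the 10 genes stayed among the 10 highest. Here a gene was taken on the probe with the highest r, which for IRF9, IFI44 and OAS2 was not the brightest. Probes of 1 gene could differ, as for ZNFX1, whose second probe had r = 0.56. The lowest r of a probe was 0.77 for OAS2, 0.74 for IFIT3, 0.90 for IRF9 and 0.89 for IFI44.

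The other genes of the pathway, a list of 72 of which 54 had a matched probe in the table, were read on their brightest probes. Between HS and TN 0 of 54 passed the adjusted threshold (limma, 0.0219% of all probes) and 3 passed unadjusted (8.77%). The smallest p belonged to SOCS3, the feedback inhibitor of cytokine receptors, at -0.43 ± 0.13 (SE, adjusted p = 0.25), lower in 14 of 17 HS arrays. The sensor cGAS (MB21D1) was at -0.12 (adjusted p = 0.56). Between LW and Creole 4 of 54 passed, all higher in LW, beside 6.65% of all probes. Between F1 and LW 0 passed (limma), beside 1.48% of all probes, and 5 passed unadjusted, beside 13.9%, with the smallest p for IFNGR1 at -0.28 (adjusted p = 0.090), the antiviral IFIT5 at -0.37 (0.14) and IRF2 at 0.14 (0.25). Between F1 and Creole 6 passed, 4 higher and 2 lower in F1, beside 6.86%. Counting a gene once over the breed comparisons, 8 of 54 were called in any of them, beside 11.4% of all probes. By role, the calls were in 1 of 6 ligands and receptors, 1 of 9 signalling genes, 2 of 10 nucleic acid sensors, 3 of 25 antiviral effectors, 1 of 3 chemokines and 0 of 1 genes of ISG15 conjugation.

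XAF1, an interferon-induced gene that promotes cell death, differed most. Its level was 7.91 ± 0.56 (SD, n = 11) in Creole, 8.96 ± 0.61 in F1 and 9.40 ± 0.67 in LW, a difference of 1.496 ± 0.25 (SE, adjusted p = 0.00016) for LW minus Creole and 1.07 ± 0.25 (adjusted p = 0.0083) for F1 minus Creole. Of its 2 probes both passed for LW minus Creole (0.67 on the other) and 1 for F1 minus Creole (0.63 on the other). On the brighter, all 11 LW arrays and all 11 F1 arrays lay above the Creole mean of their temperature. TRIM25, the ubiquitin ligase that acts on DDX58, was 0.53 higher in LW (adjusted p = 0.033) and 0.50 higher in F1 (adjusted p = 0.044) than in Creole, on its only probe. IFI44L (0.49, adjusted p = 0.032) and OASL, an OAS family member (0.42, adjusted p = 0.049), were higher in LW than in Creole. Without LW HS 3 the LW calls were lost for TRIM25 (0.51, adjusted p = 0.056), IFI44L (0.38, adjusted p = 0.055) and OASL (0.43, adjusted p = 0.053) and kept for XAF1 (1.32, adjusted p = 0.00018). With LW HS 3 counted as Creole, which its breed field names, the call of XAF1 for F1 minus Creole was lost (0.81, adjusted p = 0.12). Without both LW TN 2 and CR TN 1 those of TRIM25 (0.49, adjusted p = 0.072) and OASL (0.42, adjusted p = 0.055) were lost, and so was TRIM25 for F1 minus Creole (0.51, adjusted p = 0.054). Single arrays other than LW HS 3 also ended calls for LW minus Creole. These were LW TN 3 and 5, CR TN 5 and CR HS 3 and 4 for IFI44L, and LW TN 2, LW HS 1 and 2, CR TN 3 and CR HS 4, 5 and 6 for TRIM25. Among single omissions, OASL kept its call only in those of LW TN 1, LW HS 1 or 4, CR TN 1 or 3, CR HS 5, F1 TN 4, or F1 HS 1 or 5. For F1 minus Creole, TRIM25 kept its call only in those of LW TN 1 or 2, any 1 of the 6 LW HS arrays, CR TN 5, CR HS 1 or 3, F1 TN 3 or 5, or F1 HS 4.

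In F1 against Creole, the interferon gamma receptor IFNGR1 was lower by 0.46 ± 0.09 (SE, adjusted p = 0.0012) and lower on 4 of 4 probes. The chemokine CXCL10 was lower by 0.99 ± 0.24 (adjusted p = 0.012) and on both of its probes. The RNA sensor TLR7 was higher by 0.59 ± 0.15 (adjusted p = 0.012) and the transcription factor IRF2 by 0.21 ± 0.06 (adjusted p = 0.023). TLR7 was read at a low level, with means of 5.84 in Creole and 6.42 in F1. The call for TLR7 was lost with LW HS 3 counted as Creole (0.499, adjusted p = 0.053). Beside the lower CXCL10 and IFNGR1 stands the lower CSF1R given above, whose part was not tested. The call for IRF2 was lost without F1 HS 2 (adjusted p = 0.056). No probe of MX1, MX2, ISG15, OAS1, IFIT1 or RSAD2 passed the adjusted threshold of limma in any of these comparisons.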

How the data were processed

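The labels and the study's methods describe pituitary RNA labelled with Cy3 and hybridised to 1-colour Agilent porcine arrays (1 sentence of the methods names a mouse array, but the grid and the file headers are porcine), 1 animal per array. Per the labels, spots were read with Agilent Feature Extraction 10.10.1.1 and limma was used. The log2 values that the authors deposited cover 45667 probes. They were quantile normalized from the median pixel intensity, with no background step, and 59 are missing. The scanner files deposited with them hold intensity of spot and local background, a processed intensity, and marks that tell which spots exceed background, are saturated or are outliers. Each table column followed its own scanner file (r above 0.999), and 0 columns lacked a sample. Array number and signal over background limit the precision. The median intensity per array was 131 to 165 over a local background of 20 to 47.5.

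The log2 table was fitted by limma (version 3.58.1, R 4.3.3, data.table version 1.17.8), using breed and temperature as terms for the overall comparisons and 1 mean per breed-by-temperature group for heat within a breed and the interaction. The eBayes prior had 3.91 degrees of freedom, intervals are 95%, all tests are two-sided and the threshold was an adjusted p of 0.05 (Benjamini-Hochberg over all probes). The litter, pen and slaughter day of the study's model are not in the labels and were not fitted, so p-values treat littermates as separate animals. Replicate numbers only name arrays. An array counts as showing a direction when it lies on that side of the other group's mean within its breed (heat) or its temperature (breeds). Pairs of genes used 100000 permutations within groups (Python 3.11.15, numpy 2.4.6, pandas 2.3.3, scipy 1.17.1). Fits were tested on simulated data.

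For each gene the probe with the highest mean over the 33 arrays was named in full and other probes by range, count or where they differed. Pathway genes are those past the threshold, at most 5 per comparison and direction, or else the 3 with the smallest p. The 10 genes most like the members were taken by r. The members and lists were chosen with earlier results of these data known. Alternatives were values rebuilt from the scanner files (kept when well above background on 75% of the arrays of a group), normexp background correction with offset 50, processed intensity scaled to its 75th percentile, only probes above background on all arrays, slide as fixed or random block, LW HS 3 as Creole, array weights, the mean over a gene's probes, and each array left out. The spread by temperature (also with arrays left out), the MX1 pairs over 30 arrays the same pairs, the LW HS means and the genes most like the members without LW HS 3, and the omission of both LW HS 3 and F1 HS 5 or of both LW TN 2 and CR TN 1 were added after seeing the data. Promoters and proteins were not analysed here, and a few genes of the lists are not reported here. No paired analysis was possible because the labels give no shared replicate numbers.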

Additional observations from a re-analysis of the deposited data

Results flagged for a closer look

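Dixon's ratio at its 95% critical value was computed for the brightest probe of each gene in each of the 6 groups, 54 groups in all, of which 4 held an array far from the others, and chance gives about 1 in 20. LW TN 1 read 11.75 for MX1, below the other 4 LW TN arrays at 14.25 to 15.03. F1 HS 5 read 9.20 for MX2, above the other 4 F1 HS arrays at 7.58 to 8.03. For IRF7, CR TN 3 read 12.06, above the other 4 Creole TN arrays at 11.75 to 11.81, and F1 TN 1 read 11.70, below the other 5 F1 TN arrays at 11.99 to 12.14.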

How the results depend on the processing

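The number of the 27 probes passing between HS and TN, between F1 and LW, for heat within each breed and in the interaction was 0 under each alternative run and without any 1 array. Between F1 and Creole it went from 1 to 0 with LW HS 3 taken as Creole, to 0 with LW TN 2 and CR TN 1 left out (chosen after seeing the values) and to 2 with array weights, and lay between 0 and 2 when arrays were left out. Between LW and Creole it went from 0 to 1 with array weights (IFIT1 A_72_P489826, 0.45, adjusted p = 0.033) and lay between 0 and 1 when arrays were left out (that probe, without LW HS 4 or CR HS 5). The number of pairs passing was 22 with all arrays, 10 with LW HS 3 and F1 HS 5 left out (chosen after seeing the values) and between 13 and 24 without 1 array, with 13 coming from LW HS 3.

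Signs turned on brightest probes that passed no threshold. MX1 for HS minus TN was 0.042 with processed intensity, 0.062 with slide as fixed block, 0.0015 with slide as random block and 0.0034 as the mean of its probes. ISG15 for F1 minus LW was -0.020 with slide as fixed block. With LW HS 3 taken as Creole, LW minus Creole was -0.19 for MX2, -0.16 for ISG15, -0.039 for RSAD2, -0.072 for DDX58 and -0.091 for IRF7, F1 minus Creole was -0.016 for MX1, -0.014 for MX2 and -0.084 for IFIT1, and F1 minus LW was 0.049 for RSAD2. With array weights, MX2 was -0.051 for LW minus Creole and -0.017 for F1 minus Creole. With LW TN 2 and CR TN 1 left out, MX2 was -0.038 for LW minus Creole and DDX58 was -0.0012 for HS minus TN. As the mean of all probes, OAS1 was -0.13 for F1 minus Creole and IRF1 was 0.016 for F1 minus LW.

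Leaving out 1 array turned the sign of these values, given as their ranges. For HS minus TN they were -0.20 to 0.20 for MX1, -0.14 to 0.00025 for MX2, -0.15 to 0.080 for OAS1, -0.057 to 0.053 for IFIT1 and -0.17 to 0.019 for RSAD2. For LW minus Creole they were -0.098 to 0.11 for MX2, -0.29 to 0.089 for OAS1 and -0.013 to 0.15 for IRF7. For F1 minus LW they were -0.063 to 0.17 for MX2, -0.097 to 0.28 for ISG15 and -0.29 to 0.044 for RSAD2, and for F1 minus Creole -0.046 to 0.14 for MX2 and -0.028 to 0.090 for IFIT1. The cause was not tested.

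Of the pathway calls, XAF1, IFNGR1, CXCL10 and TLR7 kept theirs without any 1 array, while OASL lost its call in 24 of 33 such fits, TRIM25 in 8 (LW minus Creole) and 19 (F1 minus Creole), IFI44L in 6 and IRF2 in 1. With LW HS 3 taken as Creole, IFI44L (0.25 against 0.49, adjusted p = 0.54) and OASL (0.41 against 0.42, adjusted p = 0.072) lost their limma calls for LW minus Creole. TRIM25 lost both, at 0.45 for LW minus Creole (adjusted p = 0.12) and 0.45 for F1 minus Creole (0.099). TLR7 (0.499, adjusted p = 0.053) and XAF1 (0.81, 0.12) lost theirs for F1 minus Creole. With array weights TRIM25 lost its call for F1 minus Creole (0.47, adjusted p = 0.051). A slide held 0 to 2 arrays of a group, too few for values within it, and slide as a block moved none of the counts of calls past 1.5 times.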
